A study of Mus musculus with 24 samples.

Results

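The vascular basement membrane genes were followed here as 10 genes, Col4a1, Col4a2, Lama2, Lama4, Lama5, Lamb1, Lamc1, Nid1, Nid2 and Hspg2, whose rows were taken by symbol from a table of 36333 genes. No threshold on their values was applied, but the genes were chosen with earlier results of these data known. All 10 were present, and all 10 reached the mean of at least 0.5 TPM (transcripts per 1000000, a level scaled by gene length and to the library total) that left 17267 genes for testing.

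RNA was sequenced from brains of 24 male mice at 5 days post injury (5 dpi), with 1 library per mouse. Traumatic brain injury (TBI) was produced by controlled cortical impact through a craniotomy above the right parietal cortex, and mice with TBI received vehicle (5 mice), PLX3397 (5 mice), Anakinra (5 mice) or PLX3397+Anakinra (5 mice). A sham group of 4 mice, given vehicle, had anesthesia and a sutured skin incision but neither craniotomy nor impact, so that a difference between TBI and sham includes the craniotomy. PLX3397, an inhibitor of the colony stimulating factor 1 receptor CSF1R on microglia and macrophages, was given in chow at 290 mg/kg from the day of surgery until 5 dpi, and Anakinra, an antagonist of the interleukin 1 receptor IL1R1, was injected subcutaneously at 100 mg/kg on the day of surgery and on the following days, while the other mice had vehicle chow and saline. The mice carried no transgene, and their age was 12 to 16 weeks and their strain C57BL6N in the labels, whereas the methods name C57BL/6JRj. The labels give cortex as the tissue, and the methods describe sections that also hold striatum, dorsal hippocampus and thalamus.

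The basement membrane is the thin sheet of extracellular matrix that surrounds endothelial cells and pericytes of brain vessels and separates them from astrocyte endfeet. It is built from a laminin network and a collagen IV network, which are linked by nidogens and by perlecan. Laminins are trimers of an alpha, a beta and a gamma chain, and the alpha chain sets much of the binding to integrin receptors and dystroglycan. Endothelial cells, pericytes, astrocytes and fibroblasts all make chains of this sheet, and in brain tissue RNA a lower number of cells of a type and less RNA per cell cannot be told apart.

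Promoter sequences are shown for the genes with the largest and the smallest response to TBI and for the shared start of the collagen IV pair. They were taken from RefSeq windows on GRCm38.p6 that reach from 250 bases before to 50 bases after a start position. This position was the annotated gene start for Nid1 and Col4a2 and lay inside the annotated gene in the other windows. The Lama2 window (chr10:27616893-27617192, minus strand) lay almost wholly inside its gene, which ends at 27617191. Of the 10 genes 7 had such a window, Lama4, Lamc1 and Nid2 being the others. Capitals mark the GC box (GGGCGG or its complement CCGCCC). The first stretch is the sequence before the earliest annotated transcript start of Nid1 in GENCODE, 51 bases before its RefSeq start (chr13:13437352-13437550, plus strand). The second is the sequence before the annotated start of Lama5 (chr2:180225905-180226109, minus strand). The last is the overlap of the window starts of Col4a1 and Col4a2 (chr8:11312805-11312826, printed on the plus strand, from which Col4a2 is read).
Nid1: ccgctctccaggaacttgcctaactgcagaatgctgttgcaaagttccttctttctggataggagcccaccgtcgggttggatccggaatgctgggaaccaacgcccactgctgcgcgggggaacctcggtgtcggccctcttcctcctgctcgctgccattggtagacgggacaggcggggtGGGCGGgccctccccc
Lama5: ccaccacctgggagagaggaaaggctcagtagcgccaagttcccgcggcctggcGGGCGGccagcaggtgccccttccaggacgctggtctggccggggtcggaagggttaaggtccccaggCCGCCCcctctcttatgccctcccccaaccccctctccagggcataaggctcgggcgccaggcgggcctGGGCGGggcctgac
Col4a1/Col4a2: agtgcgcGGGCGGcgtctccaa

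Col4a1 and Col4a2 lie head to head on chromosome 8, with window starts at 11312826 on the minus strand and 11312805 on the plus strand. The window starts thus overlap by 22 bases that hold 1 GC box. The annotated Col4a1 gene reaches further, to 11312889, so that the annotated genes share 11312805 to 11312889. Use of strand in the counting of reads is not given in the sources used here, and reads inside this shared stretch could belong to either gene. A GC box on either strand was present in 7 of 7 windows of these genes, from 1 in Col4a1, Lama2 and Nid1 to 5 in Hspg2, where 35.7% of all 32851 windows held it. A CCAAT box (CCAAT or ATTGG) was present in 4 of 7 windows, those of Col4a1, Col4a2, Lamb1 and Nid1, and in 37.4% of all windows. TATAAA (either strand; in 13.6% of all windows) and the AP-1 motif TGANTCA (7.81%) were in 0 of the 7 windows. The windows of Col4a1 and Col4a2 overlap, and the GC box of the shared 22 bases, the only 1 in the Col4a1 window, was counted for both genes. These matches describe letters only. The Nid1 gene covers chromosome 13 from 13437602 to 13512275, Lama5 chromosome 2 from 180176373 to 180225904, and Hspg2, with up to 97 exons in a transcript the most of the 10 genes, chromosome 4 from 137468751 to 137570630.

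The tables give TPM only, so the depth of the libraries is unknown and counting intervals are not given. Each library summed to 1000000 TPM, and 22160 to 23249 genes per library were above 0. Markers of the other tissue regions were present, with 669.5 TPM of the striatal gene Ppp1r1b in sham and 674.9 TPM in vehicle mice (adjusted p = 0.979, limma). Summed TPM of 8 macrophage and microglial markers were 190.4 ± 1.80 in sham (SD, n = 4), 922.7 ± 110 in vehicle, 391.6 ± 69.3 in PLX3397, 886.7 ± 44.2 in Anakinra and 333.9 ± 36.5 in PLX3397+Anakinra mice (SD, n = 5 each), and all 8 genes, Csf1r among them, were called lower than in vehicle in both groups that ate PLX3397. Vehicle mice J17B and J20B lay nearest to sham in the basement membrane genes. The mean Z-score of the 10 genes over all libraries was -1.34 in J17B and -0.538 in J20B, against 0.439 in J01B, 0.446 in J18B and 0.511 in J19B, and it lay between -1.86 and -1.25 in sham mice. Only the vehicle mice carry a letter B in their animal code. Its meaning is not given in the sources used here, and if it marks a batch, batch and vehicle treatment cannot be told apart. Fold changes and counts that use vehicle mice were therefore also computed without J17B and J20B, a choice made after these values were seen. They are given without these mice for the 10 genes and for named genes of other lists whose call changed. The 2 mice were left out for their low values of the 10 genes, which raises the vehicle level of the set. Larger differences from sham and lower estimates against vehicle therefore follow from the choice. The same holds for genes of other lists that were low in these mice, so calls gained without them are not evidence of a difference. The p-values without these mice are a description and not a test.

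To ask how TBI changed the basement membrane genes, each TBI group was compared with sham. In vehicle mice 9 of the 10 genes were higher than in sham and 0 were lower at an adjusted p below 0.05 in limma, where 26.6% of all genes tested were called higher and 27.7% lower. The nidogen Nid1 and the collagen chain Col4a1 rose most, and the laminin chain Lama5 was the gene that did not pass. The same 9 genes were higher than in sham with PLX3397, with Anakinra and with PLX3397+Anakinra, where 22.7%, 25.1% and 20.7% of all genes were called higher. The 4 comparisons share the sham mice. The median log2 fold change over the 10 genes was 0.58 in vehicle mice, 0.81 with PLX3397, 0.96 with Anakinra and 0.81 with PLX3397+Anakinra, where the medians over all genes tested were -0.01, -0.01, -0.04 and -0.01. With J17B and J20B left out, 9 of the 10 genes were again called higher in vehicle mice, 25.6% of all genes were, and the median over the 10 genes was 0.86. Fold changes are differences of log2(TPM + 1), which understate the change of genes at low TPM.

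**Figure D1:**
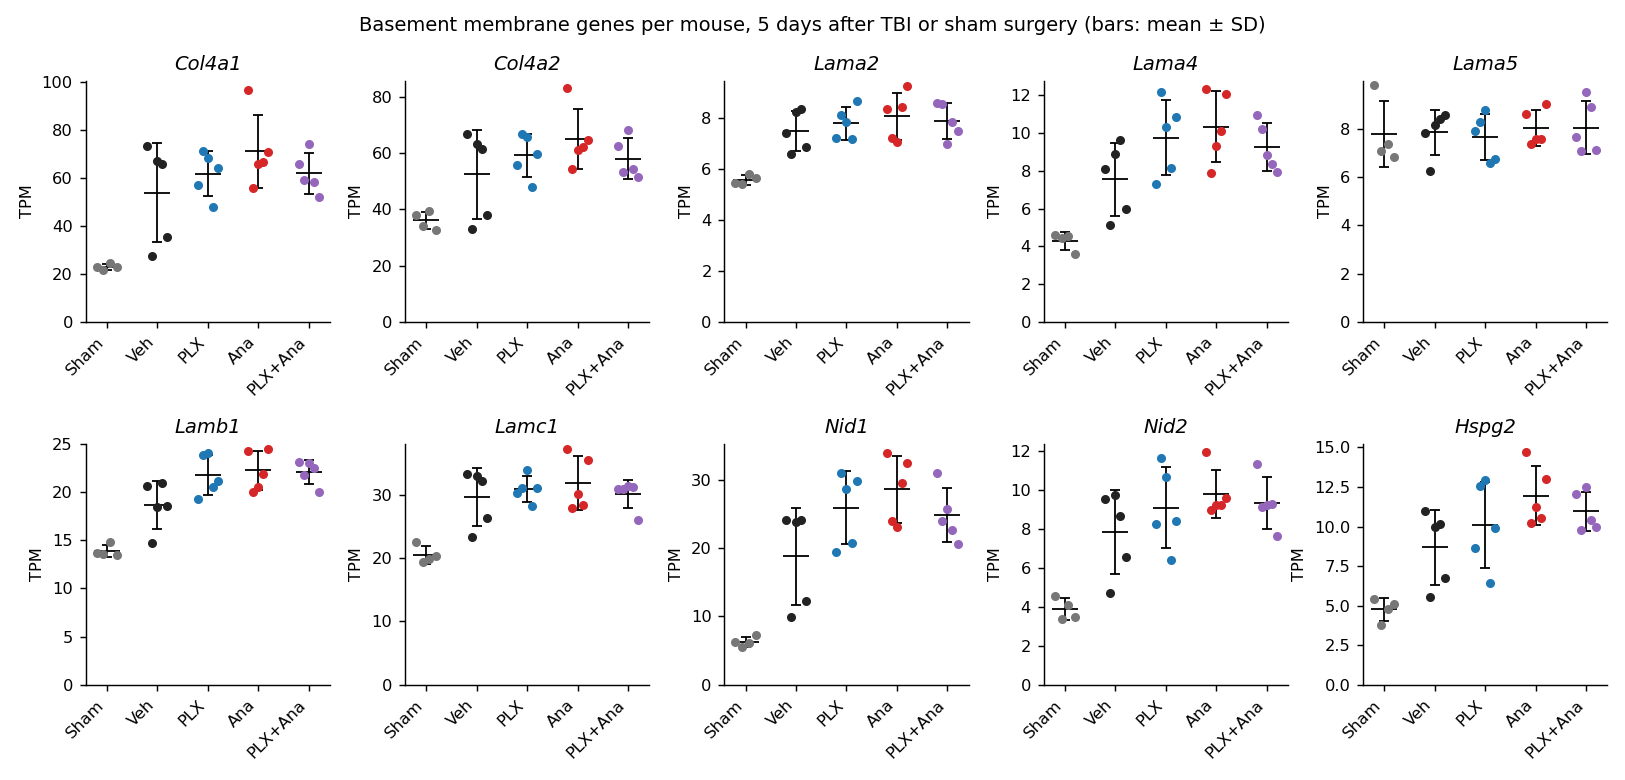
TPM (vertical axis, from 0) of the 10 basement membrane genes in each mouse, by group (Sham, n = 4; Veh, vehicle; PLX, PLX3397; Ana, Anakinra; PLX+Ana, PLX3397+Anakinra; n = 5 each); points are mice, the long line is the mean and the bars are the SD. Nid1 lay between 5.50 and 7.30 TPM in sham mice and between 9.96 and 33.9 TPM in mice with TBI, whereas the Lama5 values of sham mice and mice with TBI overlapped.

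Collagen IV is a trimer that, in vessels, contains a pair of alpha 1 chains and an alpha 2 chain, encoded by Col4a1 and Col4a2. Col4a1 measured 23.0, 21.6, 24.6 and 22.7 TPM in the 4 sham mice. It measured 73.3, 27.5, 66.9, 65.5 and 35.5 TPM in vehicle mice J01B, J17B, J18B, J19B and J20B. All vehicle mice were above the highest sham mouse, and J17B and J20B were much closer to sham than the others. The mean was 23.0 ± 1.23 TPM in sham (SD, n = 4) and 53.8 ± 20.7 TPM in vehicle mice (SD, n = 5), which gave 1.10 on the log2 scale (standard error, SE, 0.21, adjusted p = 7.4e-05, limma). Without J17B and J20B the log2 fold change was 1.54 (adjusted p = 2.8e-09, limma).

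The drug-treated mice had Col4a1 values of 56.9, 71.1, 68.1, 47.9 and 64.1 TPM with PLX3397. The values were 96.5, 55.9, 65.8, 66.6 and 70.6 TPM with Anakinra, and 65.5, 59.3, 74.0, 58.1 and 52.0 TPM with PLX3397+Anakinra. The 20 mice with TBI thus ranged from 27.5 to 96.5 TPM, and 20 of 20 were above the highest sham mouse (24.6 TPM). Against sham the log2 fold change was 1.37 with PLX3397, 1.57 with Anakinra and 1.38 with PLX3397+Anakinra (adjusted p = 6.2e-06, 5.9e-07 and 8.1e-06, limma).

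Col4a2 started from a higher level than its partner. It measured 37.8, 34.2, 39.3 and 32.8 TPM in sham mice and 66.8, 32.9, 63.3, 61.5 and 37.9 TPM in vehicle mice J01B, J17B, J18B, J19B and J20B. J17B and J20B lay within the sham range, so that the groups overlapped, and 18 of 20 mice with TBI were above the highest sham mouse. The log2 fold change was 0.48 in vehicle mice against sham (SE 0.16, 95% interval 0.14 to 0.81, adjusted p = 0.0153, limma). This call was lost without vehicle mouse J01B (adjusted p = 0.0525) or J18B (adjusted p = 0.0503, limma), and without J17B and J20B the log2 fold change was 0.81 (adjusted p = 4.9e-06, limma). The increases were 0.69 with PLX3397, 0.82 with Anakinra and 0.67 with PLX3397+Anakinra on the log2 scale (adjusted p = 0.00105, 0.000131 and 0.00188, limma).

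The 2 collagen chains changed places in the order of levels. Col4a2 had the highest mean TPM of the 10 genes in sham (36.0 against 23.0 TPM of Col4a1), and Col4a1 had the highest mean in all 4 TBI groups. The ratio of Col4a1 to Col4a2 TPM within a library was 0.607, 0.631, 0.625 and 0.692 in sham mice and 1.10, 0.838, 1.06, 1.06 and 0.937 in vehicle mice J01B, J17B, J18B, J19B and J20B. It did not overlap between the groups, and all 20 mice with TBI (0.838 to 1.16) lay above the sham mice. The mean ratio was 0.639 ± 0.0371 in sham (SD, n = 4) and 0.999 ± 0.109 in vehicle mice (SD, n = 5). The two-sided exact permutation test of vehicle against sham gave p = 0.0159, the smallest p that 5 against 4 mice allow, and an adjusted p of 0.0952 over the 20 tests of 5 ratios, which misses the threshold. Without J17B and J20B the mean in vehicle mice was 1.07 ± 0.0215 (SD, n = 3), and the exact p was 0.0571, the smallest that 3 against 4 mice allow.

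**Figure D2:**
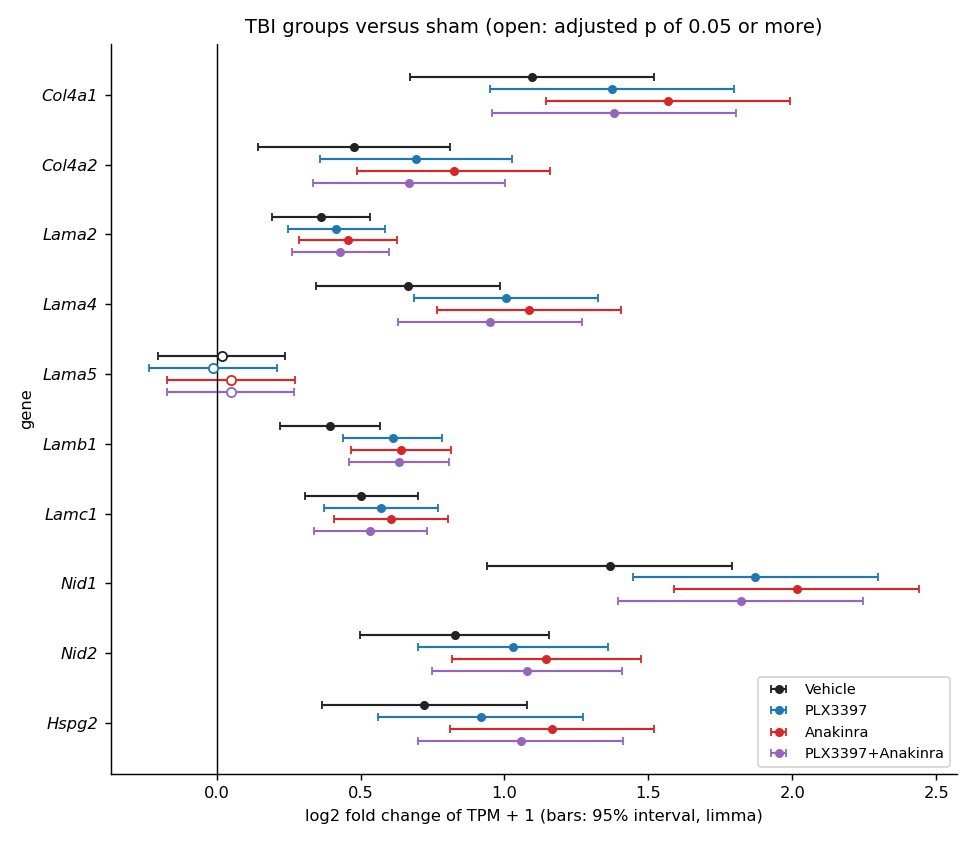
Log2 fold change of TPM + 1 (horizontal axis) of the 10 genes in each TBI group against sham, with the 95% interval from limma as bars; filled points have an adjusted p below 0.05 and open points do not. Nid1 and Col4a1 lie farthest to the right, with 1.36 and 1.10 in vehicle mice, and Lama5 lies at 0 in every group.

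Among the laminin alpha chains, Lama4 and Lama5 are the chains of endothelial laminins, and Lama2 is made mainly by astrocytes and mural cells. Lama4 measured 4.58, 4.47, 4.56 and 3.59 TPM in sham mice and 8.11, 5.12, 8.91, 9.64 and 5.98 TPM in vehicle mice J01B, J17B, J18B, J19B and J20B. The groups did not overlap, and the 20 mice with TBI ranged from 5.12 to 12.3 TPM. The log2 fold change against sham was 0.66 in vehicle mice, 1.01 with PLX3397, 1.09 with Anakinra and 0.95 with PLX3397+Anakinra (adjusted p = 0.000778, 9.0e-06, 2.0e-06 and 2.6e-05, limma). Without J17B and J20B the value in vehicle mice was 0.90 (adjusted p = 2.0e-05, limma).

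Lama5 was the single gene of the set that was not called in any comparison. It measured 9.80, 7.08, 7.37 and 6.85 TPM in sham mice and 7.83, 6.27, 8.16, 8.41 and 8.59 TPM in vehicle mice J01B, J17B, J18B, J19B and J20B. The highest value of all 24 libraries was that of a sham mouse, J07, and 0 of 20 mice with TBI were above it. The log2 fold change was 0.02 in vehicle mice (95% interval -0.20 to 0.24), -0.01 with PLX3397 (-0.23 to 0.21), 0.05 with Anakinra (-0.17 to 0.27) and 0.05 with PLX3397+Anakinra (-0.17 to 0.27), with adjusted p of 0.903, 0.936, 0.717 and 0.755 in limma. For Lama5 the vehicle value was 0.07 without J17B and J20B (adjusted p = 0.641, limma). The intervals over all mice reach at most 0.27, less than the lower bound of Nid1 and of Col4a1 in every TBI group. From the fifth highest mean TPM of the 10 genes in sham, Lama5 moved to the seventh in vehicle mice, the tenth with PLX3397 and with Anakinra and the ninth with PLX3397+Anakinra.

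The ratio of Lama4 to Lama5 TPM compares both alpha chains in the same library, over all cells of the tissue and not in endothelial cells alone. It was 0.467, 0.631, 0.618 and 0.524 in sham mice and 1.03, 0.817, 1.09, 1.15 and 0.696 in vehicle mice J01B, J17B, J18B, J19B and J20B. All 20 mice with TBI (0.696 to 1.60) were above the highest sham mouse. The mean was 0.560 ± 0.0780 in sham (SD, n = 4) and 0.957 ± 0.192 in vehicle mice (SD, n = 5; exact permutation p = 0.0159, two-sided, the smallest possible; adjusted p = 0.0952). The vehicle mean was 1.09 ± 0.0558 without J17B and J20B (SD, n = 3; exact permutation p = 0.0571, the smallest possible).

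Lama2 had smaller fold changes than Lama4. It measured 5.45, 5.39, 5.80 and 5.63 TPM in sham mice and 7.40, 6.58, 8.24, 8.33 and 6.84 TPM in vehicle mice J01B, J17B, J18B, J19B and J20B, without overlap. Its log2 fold change against sham was 0.36 in vehicle mice (SE 0.08, adjusted p = 0.000579, limma), 0.45 without J17B and J20B (adjusted p = 0.00017, limma) and 0.42 to 0.46 in the drug-treated groups. The ratio of Lama2 to Lama4 TPM was 1.31 ± 0.177 in sham (SD, n = 4) and 1.03 ± 0.180 in vehicle mice (SD, n = 5), the groups overlapped, and the difference did not pass (exact permutation p = 0.0794, two-sided, adjusted p = 0.125). It was 0.901 ± 0.0323 in vehicle mice without J17B and J20B (SD, n = 3; exact permutation p = 0.0571, the smallest possible).

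Lamb1 and Lamc1 encode the beta 1 and gamma 1 chains of laminins. Lamb1 measured 13.6, 13.5, 14.9 and 13.5 TPM in sham mice and 20.6, 14.7, 18.4, 20.97 and 18.5 TPM in vehicle mice J01B, J17B, J18B, J19B and J20B. J17B lay just below the highest sham mouse, and the other 19 mice with TBI were above it. Against sham it had log2 fold changes of 0.39 in vehicle mice, 0.61 with PLX3397, 0.64 with Anakinra and 0.63 with PLX3397+Anakinra (adjusted p = 0.000326, 1.9e-06, 5.9e-07 and 1.6e-06, limma). For Lamb1 the vehicle value was 0.50 without J17B and J20B (adjusted p = 1.9e-05, limma).

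Lamc1 measured 22.5, 19.4, 19.8 and 20.3 TPM in sham mice and 33.4, 23.4, 33.1, 32.1 and 26.4 TPM in vehicle mice J01B, J17B, J18B, J19B and J20B. The groups did not overlap, and all 20 mice with TBI (23.4 to 37.2 TPM) were above the highest sham mouse. Its log2 fold changes against sham were 0.50 in vehicle mice, 0.57 with PLX3397, 0.61 with Anakinra and 0.53 with PLX3397+Anakinra (adjusted p = 8.5e-05, 2.6e-05, 8.1e-06 and 8.0e-05, limma). Leaving out J17B and J20B gave 0.66 in vehicle mice (adjusted p = 1.1e-06, limma). The ratio of Lamb1 to Lamc1 TPM was 0.680 ± 0.0605 in sham (SD, n = 4) and 0.632 ± 0.0531 in vehicle mice (SD, n = 5), a difference smaller than the spread between mice (exact permutation p = 0.27, two-sided, and 0.171 without J17B and J20B).

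Nidogens bind the gamma 1 chain of laminin and collagen IV and so bridge the networks. Nid1 measured 6.23, 5.50, 6.07 and 7.30 TPM in sham mice. It measured 24.1, 9.96, 23.9, 24.1 and 12.2 TPM in vehicle mice J01B, J17B, J18B, J19B and J20B, all above the sham mice. The mean was 6.27 ± 0.752 TPM in sham (SD, n = 4) and 18.8 ± 7.12 TPM in vehicle mice (SD, n = 5), a ratio of 3.00 and a log2 difference of 1.36 (SE 0.21, adjusted p = 4.3e-06, limma). Without J17B and J20B the log2 fold change was 1.79 (adjusted p = 1.3e-09, limma).

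The drug-treated mice had Nid1 values of 19.4, 31.0, 28.7, 20.8 and 29.9 TPM with PLX3397. The values were 33.9, 24.0, 23.2, 29.5 and 32.5 TPM with Anakinra and 31.1, 24.0, 25.7, 22.6 and 20.6 TPM with PLX3397+Anakinra. Each of these 15 mice had more than the highest sham value of 7.30 TPM, and the group means of 25.96, 28.6 and 24.8 TPM were 4.14, 4.56 and 3.96 times the sham mean. The log2 fold changes against sham were 1.87, 2.01 and 1.82 (adjusted p = 6.7e-08, 1.1e-08 and 1.5e-07, limma), the largest of the 10 genes in each group.

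Nid2 measured 4.54, 3.39, 4.10 and 3.45 TPM in sham mice and 9.50, 4.71, 9.74, 8.63 and 6.57 TPM in vehicle mice J01B, J17B, J18B, J19B and J20B. The lowest vehicle mouse was only just above the highest sham mouse. The fold change against sham (log2) was 0.83 in vehicle mice, 1.03 with PLX3397, 1.15 with Anakinra and 1.08 with PLX3397+Anakinra (adjusted p = 0.000105, 1.0e-05, 1.5e-06 and 7.7e-06, limma). In vehicle mice other than J17B and J20B it was 1.08 (adjusted p = 1.1e-06, limma). The ratio of Nid1 to Nid2 TPM was 1.65 ± 0.329 in sham (SD, n = 4) and 2.35 ± 0.365 in vehicle mice (SD, n = 5), with 18 of 20 mice with TBI above the highest sham mouse (exact permutation p = 0.0476, two-sided, adjusted p = 0.119). With J17B and J20B left out the vehicle mean was 2.59 ± 0.176 (SD, n = 3; exact permutation p = 0.0571, the smallest possible).

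Hspg2 encodes perlecan, the heparan sulfate proteoglycan of the sheet. It measured 5.40, 3.77, 4.76 and 5.09 TPM in sham mice and 10.99, 5.57, 9.98, 10.2 and 6.73 TPM in vehicle mice J01B, J17B, J18B, J19B and J20B. The groups did not overlap, although J17B was close to the highest sham mouse. Against sham the log2 differences were 0.72 in vehicle mice, 0.92 with PLX3397, 1.17 with Anakinra and 1.06 with PLX3397+Anakinra (adjusted p = 0.000987, 0.00011, 3.3e-06 and 2.6e-05, limma). The vehicle difference was 0.99 when J17B and J20B were left out (adjusted p = 2.0e-05, limma).

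**Figure D3:**
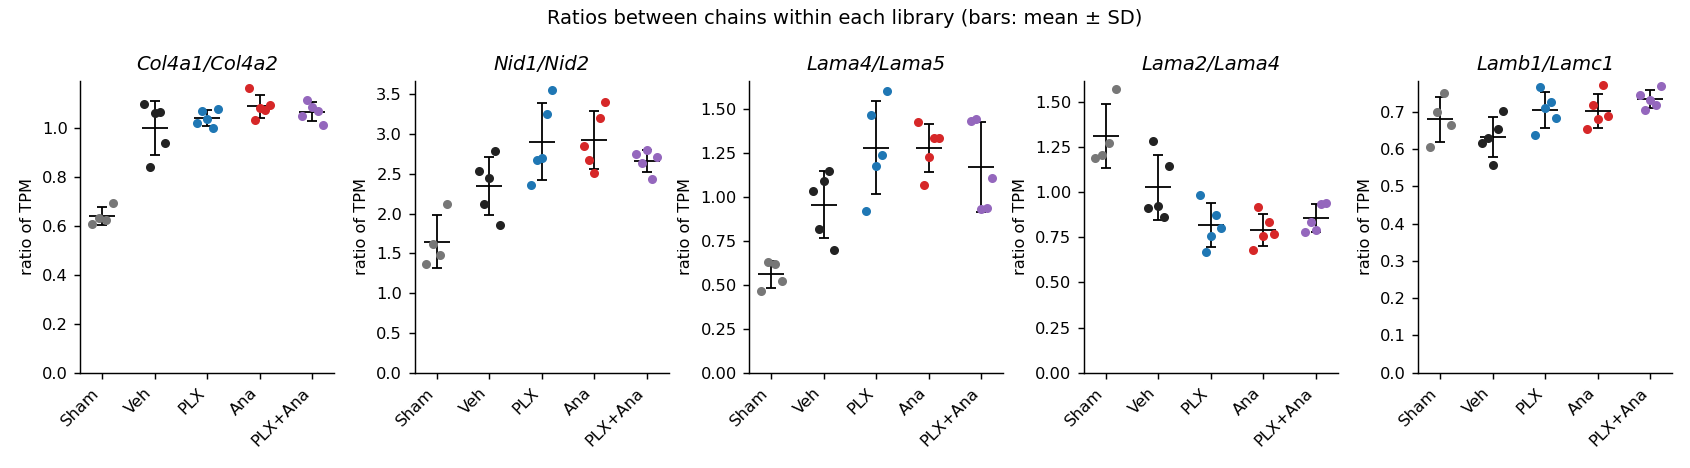
Ratios of TPM between pairs of chains within each library (vertical axis, from 0), by group (Sham, n = 4; the others n = 5 each); points are mice, the long line is the mean and the bars are the SD. The Col4a1/Col4a2 and Lama4/Lama5 ratios of all 20 mice with TBI lie above those of the sham mice, while Lamb1/Lamc1 overlaps between sham and vehicle.

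By the non-overlap of the mice, 7 of the 10 genes were higher in vehicle mice than in sham, and 9 of 10 in each drug-treated group. Among all genes tested, 21.7% did not overlap in this direction in vehicle mice, 18.7% with PLX3397, 21.3% with Anakinra and 16.9% with PLX3397+Anakinra. Among vehicle mice other than J17B and J20B, 9 of the 10 genes and 25.8% of all genes did not overlap with sham in this direction. By the fold criteria of the study (unadjusted p below 0.05, group means of TPM that differ by a factor above 2 and by more than 4 TPM), 2 of the 10 genes were up-regulated in vehicle mice, Col4a1 and Nid1, where 5.11% of all genes were. Under these criteria 5 of the 10 genes, Col4a1, Lama4, Nid1, Nid2 and Hspg2, were up-regulated in each drug-treated group, where 3.58% of all genes were with PLX3397, 5.24% with Anakinra and 2.84% with PLX3397+Anakinra. The F-test of limma over the 5 groups called 9 of the 10 genes, again without Lama5, and 51.9% of all genes.

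To ask whether the drugs altered this response, the drug-treated groups were compared with vehicle mice after TBI. With PLX3397, 0 of the 10 genes were called higher or lower than in vehicle in limma, where 3.23% of all genes were called higher and 6.66% lower, and 3 of the 10 (Lama4, Lamb1 and Nid1) had an unadjusted p below 0.05, as had 22.8% of all genes. With Anakinra, 0 of the 10 genes were called in limma, where 0.0695% of all genes were called higher, and 7 of the 10 (Col4a1, Col4a2, Lama4, Lamb1, Nid1, Nid2 and Hspg2) had an unadjusted p below 0.05, where 12.4% of all genes had. With PLX3397+Anakinra, 1 of the 10 genes was called higher, Lamb1, and 0 lower, where 7.88% of all genes were called higher and 9.6% lower, and 3 of the 10 (Lamb1, Nid1 and Hspg2) had an unadjusted p below 0.05, as had 29.7% of all genes. The 3 comparisons share the vehicle mice.

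The estimates against vehicle were above 0 for 9 of the 10 genes with PLX3397 and for all 10 with Anakinra and with PLX3397+Anakinra. Their medians were 0.21, 0.33 and 0.25 on the log2 scale, where the medians over all genes tested were 0.01, -0.02 and 0.01. Nid1 had the largest estimates, 0.51 with PLX3397 (95% interval 0.11 to 0.91, adjusted p = 0.106), 0.65 with Anakinra (0.25 to 1.05, adjusted p = 0.149) and 0.46 with PLX3397+Anakinra (0.05 to 0.86, adjusted p = 0.112), all from limma. Col4a1 followed with Anakinra, at 0.47 (95% interval 0.07 to 0.87, adjusted p = 0.309, limma). For Lama5 the estimates were -0.03 (95% interval -0.24 to 0.18), 0.03 (-0.18 to 0.24) and 0.03 (-0.18 to 0.24), and for Lamc1 they were 0.07 (-0.12 to 0.25), 0.10 (-0.08 to 0.29) and 0.03 (-0.15 to 0.22).

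Without J17B and J20B, the estimates against vehicle were lower for all 10 genes, a direction set in advance by leaving out the vehicle mice nearest to sham. With any drug, 0 of the 10 were called or had an unadjusted p below 0.05 in limma. Among all genes, 3.75%, 0.0116% and 7.69% were called higher with PLX3397, Anakinra and PLX3397+Anakinra, and 7.53%, 0.0753% and 9.94% lower. An unadjusted p below 0.05 was then found for 4100, 1720 and 5149 of the 17267 genes. The estimates above 0 then numbered 3 of 10 with PLX3397 (Lama4, Lamb1 and Nid1) and 8 of 10 with Anakinra. With PLX3397+Anakinra they numbered 4 of 10 (Lama4, Lamb1, Nid1 and Hspg2). Among the 17267 genes, 9132, 7875 and 9486 were above 0. The medians of the 10 genes were -0.06, 0.05 and -0.01 on the log2 scale, and those of all genes 0.01, -0.01 and 0.02. For Nid1 the estimates were then 0.08 with PLX3397, 0.23 with Anakinra and 0.03 with PLX3397+Anakinra on the log2 scale (adjusted p = 0.787, 0.646 and 0.911, limma). For Col4a1 they were -0.16, 0.03 and -0.16 (adjusted p = 0.498, 0.97 and 0.465, limma).

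Lamb1 measured 19.3, 23.9, 24.1, 20.5 and 21.2 TPM with PLX3397, 24.3, 20.03, 20.6, 21.9 and 24.5 TPM with Anakinra and 23.1, 21.8, 23.0, 22.5 and 20.1 TPM with PLX3397+Anakinra. The combination overlapped with the vehicle mice, whose highest value was 20.97 TPM. The mean was 22.1 ± 1.24 TPM with PLX3397+Anakinra and 18.7 ± 2.48 TPM in vehicle mice (SD, n = 5 each), a difference of 0.24 on the log2 scale (SE 0.08, 95% interval 0.08 to 0.40, adjusted p = 0.037, limma). With PLX3397 the log2 fold change against vehicle was 0.22 (adjusted p = 0.0852) and with Anakinra 0.25 (adjusted p = 0.179, limma). The call with PLX3397+Anakinra was lost without vehicle mouse J17B (adjusted p = 0.109), J18B (0.0719) or J20B (0.0636), without PLX3397+Anakinra mouse J03 (0.0739), J04 (0.0531), J09 (0.0821) or J10 (0.0714), and without J17B and J20B together (log2 fold change 0.14, adjusted p = 0.245, all limma). It was also lost with no filter on low values (adjusted p = 0.0607), with rescaled libraries (adjusted p = 0.0546) and with only the compared groups in the model (adjusted p = 0.0813, limma).

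**Figure D4:**
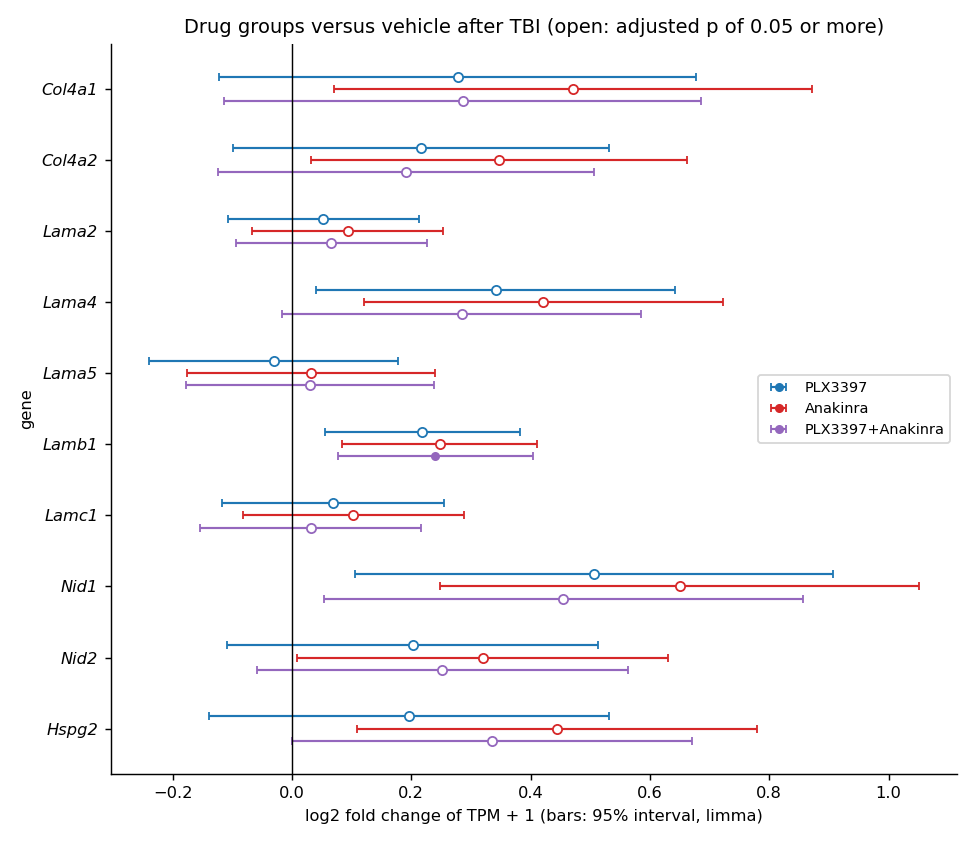
Log2 fold change of TPM + 1 (horizontal axis) of the 10 genes in the drug-treated groups against vehicle after TBI, with the 95% interval from limma as bars; the filled point, Lamb1 with PLX3397+Anakinra (0.24), has an adjusted p below 0.05 and the open points do not. The estimates of Nid1 are the largest, from 0.46 to 0.65, and all points but that of Lama5 with PLX3397 (-0.03) lie to the right of 0.

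Ratios between chains were also compared with vehicle. The ratio of Lamb1 to Lamc1 TPM was 0.745, 0.706, 0.732, 0.719 and 0.769 with PLX3397+Anakinra and 0.617, 0.631, 0.557, 0.653 and 0.703 in vehicle mice J01B, J17B, J18B, J19B and J20B, without overlap. The means were 0.734 ± 0.0242 and 0.632 ± 0.0531 (SD, n = 5 each), and the exact permutation test gave p = 0.00794 (two-sided), the smallest p that 5 against 5 mice allow, and an adjusted p of 0.0952. Against the vehicle mice other than J17B and J20B (0.609 ± 0.0482, SD, n = 3) the exact p was 0.0357, the smallest that 5 against 3 mice allow. The ratio of Lama4 to Lama5 TPM was 0.957 ± 0.192 in vehicle mice and 1.28 ± 0.137 with Anakinra (SD, n = 5 each; exact permutation p = 0.0238, two-sided, adjusted p = 0.0952), and the exact p was 0.107 without J17B and J20B. Over all 20 tests of the 5 ratios, the smallest adjusted p was 0.0952, so that 0 passed, and 8 had an unadjusted exact p below 0.05.

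The combination was set against each drug alone, and the contrast of both drugs tested whether their joint difference departed from the sum of the single ones. Against PLX3397 0 of the 10 genes were called, where 0.151% of all genes were called in either direction, and 0 of the 10 but 6.71% of all genes had an unadjusted p below 0.05 in limma. The estimates lay between -0.06 and 0.14 on the log2 scale, with a 95% interval of -0.45 to 0.35 for Nid1. Against Anakinra 0 of the 10 genes were called, where 12.8% of all genes were called, and 0 of the 10 but 27.9% of all genes had an unadjusted p below 0.05 in limma. All 10 estimates were below 0, from -0.19 for Nid1 to -0.001 for Lama5. The interaction of PLX3397 and Anakinra was called for 0 of the 10 genes and for 0.0% of all genes in limma. Of the 10, Nid1 (-0.70, 95% interval -1.27 to -0.13, adjusted p = 0.551) and Lama4 (-0.48, 95% interval -0.90 to -0.05, adjusted p = 0.573, limma) had an unadjusted p below 0.05, where 8.08% of all genes had. These estimates were -0.28 and -0.24 without J17B and J20B.

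The genes moved together from mouse to mouse. Over the 24 libraries, the 36 pairs among the 9 genes other than Lama5 had Pearson's r of log2(TPM + 1) between 0.80 and 0.97 (median 0.93), which includes the difference between TBI and sham. After subtraction of the group means r was 0.52 to 0.99 (median 0.80). The 9 pairs with Lama5 had r of 0.14 to 0.41 (median 0.33), and 0.13 to 0.65 (median 0.54) after subtraction of the group means. These values describe genes measured in the same libraries, which share depth and tissue composition. In sham the members' order of mean TPM was Col4a2, Col4a1, Lamc1, Lamb1, Lama5, Nid1, Lama2, Hspg2, Lama4 and Nid2, from 36.0 to 3.87 TPM. In vehicle mice Nid1 (18.8 TPM) stood in the fourth place, beside Lamb1 (18.7 TPM), and Nid2, Lama5, Lama4 and Lama2 lay between 7.48 and 7.85 TPM, closer to each other than the spread between mice.

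The genes most like the mean Z-score of the 10 genes over the 24 libraries, among all other genes tested, were Col18a1 (r = 0.978), Mrc2 (0.974), Col7a1 (0.971), Ptrf (0.967), Fn1 (0.966), Ckap4 (0.964), Cnn2 (0.963), Emilin1 (0.962), Bgn (0.960) and Scarf2 (0.960). Col18a1 encodes collagen XVIII, the collagen of basement membranes that carries endostatin, and Fn1 encodes fibronectin. After subtraction of the group means Tln1 (r = 0.952), Col18a1 (0.943), Mrc2 (0.942), Adamts2 (0.934) and Col7a1 (0.924) led, followed by Adamts9, Fn1, Pear1, Scarf2 and Myh9 (0.914 to 0.906). Col18a1 had a mean of 4.26 ± 0.875 TPM in sham (SD, n = 4) and 14.4 ± 6.08 TPM in vehicle mice (SD, n = 5), with vehicle mice between 6.12 and 19.02 TPM. These r values are a description without a test, over libraries that share depth and composition.

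Chains of basement membranes outside the 10 genes were followed as a list of 10. In limma 4 were higher in vehicle mice than in sham, with a median log2 fold change of 0.10. The collagen chains Col4a5 (1.08) and Col4a6 (1.43) rose (adjusted p = 6.4e-08 and 1.4e-09, limma). Against vehicle, 0 of these 10 chains were called higher and 1, Col4a3, was called lower with PLX3397 and with PLX3397+Anakinra (log2 fold change -0.33 and -0.29, adjusted p = 0.0219 and 0.033, limma). For Col4a3 the adjusted p was 0.0407 and 0.0591 without J17B and J20B, and Col4a5 (-0.33) and Col4a6 (-0.39) were then called lower with PLX3397+Anakinra (adjusted p = 0.0336 and 0.0173, limma).

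Of 15 proteins associated with the sheet, 8 were higher and 3 lower in vehicle mice than in sham. Sparc (log2 fold change 1.04), a collagen-binding matricellular protein, Fn1 (1.88) and Smoc1 (0.55), a relative of Sparc, had the smallest adjusted p (6.3e-08, 5.8e-07 and 1.0e-06, limma). Of 12 receptors 11 were tested, and 9 were higher and 1 lower. The integrin chains Itga6 (1.501), of laminin receptors, and Itga5 (1.60), of the fibronectin receptor, and the collagen receptor Ddr1 (0.83) rose (adjusted p = 1.5e-15, 1.9e-11 and 3.9e-09, limma). Itga6 was lower than in vehicle with PLX3397 (-0.59) and with PLX3397+Anakinra (-0.64; adjusted p = 2.1e-07 and 2.0e-08, limma), and its group means moved in parallel with the macrophage and microglial markers given above, whose part in this difference was not tested. Itga5 was called lower than in vehicle only without J17B and J20B (-0.46 with PLX3397 and -0.43 with PLX3397+Anakinra, adjusted p = 0.00487 and 0.0066, limma). With PLX3397+Anakinra the receptor Itga3 was called higher than in vehicle (0.24, adjusted p = 0.0207), but not without J17B and J20B (adjusted p = 0.113, limma). Of the associated proteins, Smoc2 (0.69) and Fbln2 (0.77) were then higher and Npnt (-0.29) lower than in vehicle over all mice (adjusted p = 0.0033, 0.024 and 0.0017, limma). Without J17B and J20B their adjusted p was 0.059, 0.315 and 0.00523 (limma).

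Of 13 genes of collagen assembly, 10 were higher and 1 lower in vehicle mice than in sham. The prolyl hydroxylase chains P4ha3 (log2 fold change 1.86) and P4hb (0.82) and the lysyl hydroxylase Plod1 (1.44) had the smallest adjusted p (1.4e-12, 1.3e-08 and 6.3e-12, limma). Serpinh1, the chaperone of procollagen in the endoplasmic reticulum, had a mean of 23.1 TPM in sham and 101.1 TPM in vehicle mice and was higher still with PLX3397+Anakinra (165.8 TPM, log2 fold change against vehicle 0.86, adjusted p = 0.0265, limma), a call that was lost without J17B and J20B (0.29, adjusted p = 0.383, limma). Plod1 was lower than in vehicle with PLX3397 (-0.41) and with PLX3397+Anakinra (-0.48; adjusted p = 0.00444 and 0.000581, limma). P4ha3 was called lower with PLX3397 once J17B and J20B were left out (-0.41, adjusted p = 0.0193, limma).

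Cell types that can make the sheet were followed by marker lists. Summed TPM of 12 endothelial markers were 406.3 ± 9.70 in sham (SD, n = 4; 394.6 to 418.3) and 503.1 ± 47.0 in vehicle mice (SD, n = 5; 431.4 to 544.5). Of the 12 genes 9 were called higher and 0 lower, with a median log2 fold change of 0.45, led by Cldn5 (0.52), a tight junction protein, Tie1 (0.48) and Cdh5 (0.61), the cadherin of endothelial junctions (adjusted p = 5.1e-05, 6.8e-05 and 7.4e-05, limma). Of 7 markers of growing vessels 6 were tested, and Apln (0.47) and Angpt2 (0.80) were higher while Cd34 fell by 0.41 on the log2 scale (adjusted p = 5.6e-06, 0.0004 and 4.7e-06, limma). Against vehicle, 0 of the endothelial markers in both lists were called in any drug-treated group, with 1, 2 and 2 of the 12 at an unadjusted p below 0.05 with PLX3397, Anakinra and PLX3397+Anakinra, and 3, 3 and 1 of the 6. Leaving out J17B and J20B, 2 of the 12 were called lower with PLX3397+Anakinra, Cldn5 (-0.28) and the VEGF receptor gene Kdr (-0.28; adjusted p = 0.0384 and 0.0402, limma). These mice were the lowest vehicle mice in the summed endothelial markers, so lower estimates follow from leaving them out.

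Pericyte markers summed to 217.9 ± 5.04 TPM in sham (SD, n = 4; 211.5 to 223.3) and 253.6 ± 15.8 TPM in vehicle mice (SD, n = 5; 229.6 to 266.9), and 5 of 8 were called higher and 0 lower. Cspg4 rose in vehicle mice (log2 fold change 0.59, adjusted p = 2.4e-05, limma). Against vehicle, 1 of the 8 was called lower and 1 higher both with PLX3397 and with PLX3397+Anakinra, and 0 with Anakinra. The lower one was Cspg4 (-0.40 and -0.39, adjusted p = 0.0067 and 0.0055), and the higher one was Vtn (0.16 and 0.14, adjusted p = 0.030 and 0.039, limma), which was not called without J17B and J20B (adjusted p = 0.131 and 0.164). The cell type behind the lower Cspg4 was not tested. The summed pericyte markers were 272.2 TPM with PLX3397, 251.6 TPM with Anakinra and 256.6 TPM with PLX3397+Anakinra. Of 5 smooth muscle markers, 2 were higher than in sham in vehicle mice, Tagln (0.90) and Des (0.50), and 1, Myh11, was lower (-0.42; adjusted p = 0.0025, 0.00056 and 0.0017, limma). Their summed TPM were 91.4 ± 31.95 in vehicle mice, 139.9 ± 38.1 with PLX3397, 149.7 ± 12.3 with Anakinra and 124.6 ± 31.1 with PLX3397+Anakinra (SD, n = 5 each). Against vehicle, 2 of 5 were called higher with PLX3397, Acta2 (0.78) and Cnn1 (0.53; adjusted p = 0.0326 and 0.0196, limma), and 0 with Anakinra and with PLX3397+Anakinra, where 4 and 2 had an unadjusted p below 0.05. In the comparisons without J17B and J20B, 4 of the 5 were called higher than in sham in vehicle mice, and 0 were called against vehicle with any drug.

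Of 5 astrocyte markers 5 were higher, led by Gfap (4.06) and Aqp4 (2.03), which encodes the water channel of the endfeet (adjusted p = 3.1e-19 and 5.6e-14, limma). Of 7 markers of neurons and brain regions 4 were lower, among them Slc17a7 (-0.74), the vesicular glutamate transporter of cortical excitatory neurons (adjusted p = 4.7e-09, limma).

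Fibroblast markers ranged widely within the vehicle group. Their summed TPM were 74.6, 71.04, 81.0 and 81.5 in sham mice and 619.3, 124.3, 749.4, 729.8 and 155.2 in vehicle mice J01B, J17B, J18B, J19B and J20B. J17B and J20B, which lay nearest to sham in the basement membrane genes, were also the lowest vehicle mice here. They were the lowest vehicle mice as well in endothelial markers (431.4 and 484.2 TPM), pericyte markers (229.6 and 245.6 TPM) and smooth muscle markers (53.4 and 69.1 TPM). Their macrophage and microglial markers were 747.7 and 956.9 TPM in a group range of 747.7 to 1013 TPM, and their astrocyte markers 3148 and 3671 TPM in a range of 3058 to 4125 TPM. Of the 8 fibroblast markers 7 were higher in vehicle mice than in sham and 0 lower, led by the fibrillar collagen chains Col3a1 (log2 fold change 4.29) and Col1a1 (3.64) and by the proteoglycan Dcn (1.08; adjusted p = 1.2e-06, 4.0e-06 and 6.5e-06, limma). None of the 8 markers was at 0 in any library.

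With PLX3397 the fibroblast markers summed to 502.9 to 1207 TPM, with Anakinra to 834.4 to 1615 TPM and with PLX3397+Anakinra to 745.6 to 1284 TPM. Against vehicle 5 of 8 were called higher and 1 lower with PLX3397, 0 with Anakinra (6 at an unadjusted p below 0.05) and 5 higher and 1 lower with PLX3397+Anakinra, in limma. With PLX3397+Anakinra, Postn (log2 fold change 1.73) and Lum (1.11) were higher and Pdgfra was lower (-0.31; adjusted p = 0.0011, 0.011 and 0.00061, limma). Pdgfra thus went against the called fibroblast markers, and the cell type behind its difference was not tested. When J17B and J20B were left out, 1 of 8 was called higher and 1 lower with PLX3397 and with PLX3397+Anakinra, Postn (0.92 and 0.99) and Pdgfra (-0.29 and -0.38; adjusted p = 0.0426, 0.0193, 0.00592 and 0.000245, limma). The part of endothelial cells, mural cells, fibroblasts, astrocytes or phagocytes in the levels of the basement membrane genes was not tested.

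**Figure D5:**
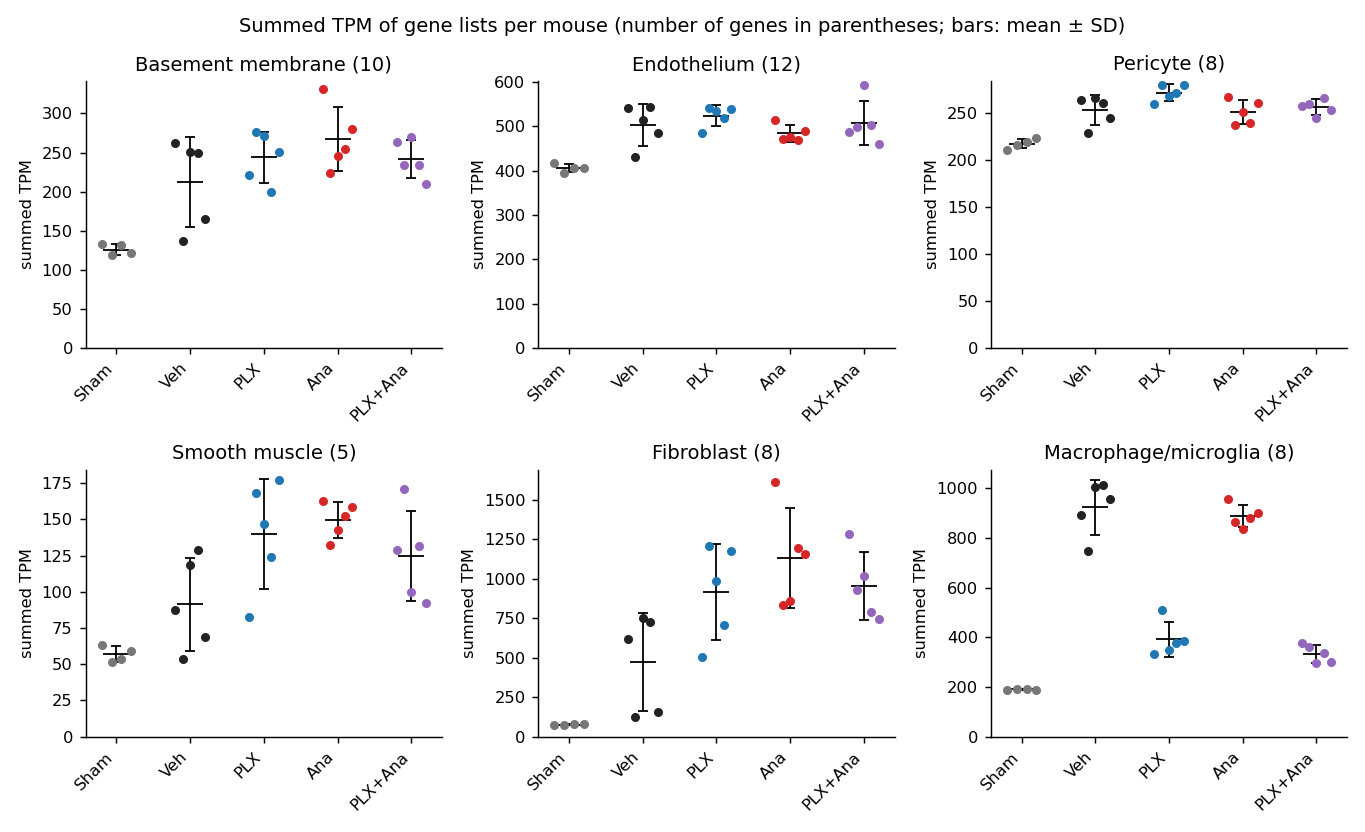
Summed TPM (vertical axis, from 0) of the basement membrane genes and of 5 marker lists in each mouse, by group (Sham, n = 4; the others n = 5 each); points are mice, the long line is the mean and the bars are the SD. In vehicle mice the fibroblast markers range from 124.3 to 749.4 TPM and the basement membrane genes from 136.7 to 262 TPM, while macrophage and microglial markers are lowest among the TBI groups in the mice that ate PLX3397.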

How the data were processed

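The authors trimmed and mapped the reads to the mouse genome with CLC Genomics Workbench, and the deposited values are TPM. Per the labels the build was GRCm38. Of 3 deposited tables, the table with full precision was used, and the table rounded to 3 decimals served as an alternative. The third, filtered table also holds p and F values of the authors' own tests and was not used. No sample was left out, and 0 value columns lacked a sample.

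Genes averaging at least 0.5 TPM were fitted as log2(TPM + 1) in limma 3.58.1 (R 4.3.3), with 1 mean per group, all 24 libraries and a variance trend, and p-values were Benjamini-Hochberg adjusted over 17267 genes. The script was tested on simulated data. Ratios within a library were compared by exact permutation in scipy 1.17.1. All 10 genes are named. From other lists the 3 genes with the smallest adjusted p in vehicle versus sham or in PLX3397+Anakinra versus vehicle could be named, with genes that results turn on (Serpinh1, Ppp1r1b, Csf1r, Col4a3), and the 10 genes of the most similar pattern. Some of these genes are not reported here. The genes and lists were chosen with earlier results of these data known. Alternatives covered the pseudocount, filter, rescaling, table, samples fitted, variance trend, call rule and each mouse left out.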

Additional observations from a re-analysis of the deposited data

Results flagged for a closer look

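Single mice stood apart from their group in 4 of 75 groups of values examined, by a gap to the nearest mouse that exceeded Dixon's 95% critical value (0.829 for 4 mice and 0.71 for 5). Chance gives about 1 in 20 such groups. Sham mouse J16 had 3.59 TPM of Lama4, below the other sham mice. Sham mouse J15 had 14.9 TPM of Lamb1, above the other sham mice. PLX3397+Anakinra mouse J17 had 26.1 TPM of Lamc1, the lowest of its group. Anakinra mouse J05 had 11.9 TPM of Nid2, the highest of its group.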

How the results depend on the processing

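Under the fold criteria of the study in place of adjusted p, the number of the 10 genes called higher than in sham was 2 in vehicle mice and 5 in each of the PLX3397, Anakinra and PLX3397+Anakinra groups, in place of 9. In PLX3397+Anakinra versus vehicle the count of 1 gene (Lamb1) became 0 with no filter on low values, with median-ratio rescaling, with only the compared groups in the model, under the criteria of the study and, as an alternative added after the data were seen, without vehicle mice J17B and J20B. With each mouse left out it was 0 to 1. It was 0 without vehicle mouse J17B, J18B or J20B and without PLX3397+Anakinra mouse J03, J04, J09 or J10. In vehicle versus sham it was 8 to 9, since Col4a2 was lost without vehicle mouse J01B or J18B. The causes were not tested. Of 221 counts of genes called under alternatives, 205 kept within 1.5 times the reported count and 16 were lower. Of 1810 fold changes under alternatives, 1797 kept their side of the threshold, 13 lost it and 0 called values changed sign. Of 235 alternatives for the ratios, 197 kept their side of an unadjusted exact p of 0.05, 8 gained it and 30 lost it. Rescaling moved libraries by -0.0679 to 0.0347 on the log2 scale. No paired analysis was possible because each animal code belongs to 1 mouse, and the labels tie no mice of different groups together. Depth is unknown from TPM, and the precision rests on 4 or 5 mice a group. The p-values set differences between groups against the spread between mice, which limma estimated over all 5 groups together.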
